A study of Homo sapiens with 9 samples.

Results

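The genes described here are the DNA replication machinery and the enzymes of nucleotide supply, a list of 47 genes taken by symbol from the expression table of A375 melanoma cells. The list was made by known role and not by a cut on measured values, but with earlier results of these data known. All 47 were found among the 18430 genes of the table, and all 47 were among the 13989 genes with enough reads to be tested. They were ordered by role: 10 genes of origin licensing, 6 of helicase activation, 8 of the polymerases and primase, 7 of the sliding clamp and its loaders, 3 of single-strand binding, 3 of lagging-strand maturation, 5 of nucleotide supply, 3 that act on chromatin behind the fork and 2 of fork protection.

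A375 is an established human skin melanoma line with an activating BRAF mutation, and every group carried that genotype. RNA was sequenced from 9 libraries, 3 for each of 3 groups. Control cells were kept in normal culture, with no vehicle treatment named. The second group received vemurafenib, an inhibitor of mutant BRAF, at 10 µM for 3 days. The third received cisplatin, a platinum compound that crosslinks DNA, at 2 µM for 1 day. Both treated groups went back to drug-free medium and were harvested on day 7, so dose and exposure time differ between the drugs. Whether day 7 counts from the start or the end of exposure is not clear, so time off the drug may differ too. No harvest day is given for the controls. No label says whether the replicates were grown separately, so the p-values reflect spread among the libraries that could be technical alone. Both drug comparisons use the same 3 control libraries.

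Before a cell copies its DNA, the origin recognition complex, CDC6 and CDT1 load the ring-shaped helicase made of MCM2 to MCM7 onto origins in G1. In S phase CDC45, the GINS complex and MCM10 turn that ring into an active helicase, primase and DNA polymerases alpha, delta and epsilon copy the strands, and PCNA holds the polymerases on DNA. Ribonucleotide reductase, thymidylate synthase and thymidine kinase supply the deoxynucleotides. Many of these genes are known targets of E2F transcription factors, which are held back by the retinoblastoma family when a cell leaves the cycle.

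Promoter sequences are shown for 5 members because the members moved together and because 2 short motifs recur in their promoters. RefSeq windows of build GRCh38.p14, from 250 bases before to 50 after each annotated start, were found for 40 of the 47 members. The E2F motif was searched on both strands as the letters TTTCCCGC, TTTCGCGC, TTTGCCGC, TTTGGCGC, TTCCCGCC, TTCGCGCC, TTGCCGCC and TTGGCGCC. These strings overlap each other, so neighbouring matches can share bases. Of the 40 members, 29 (72.5%) had a match, against 14.5% of the 11320 tested genes with a window and 7.5% of all 35116 windows. The 59 matches lay at a median of 35 bases before the start (-35), and 36 began within the 100 bases before it. The CCAAT box, the letters CCAAT on either strand and known as the site of NF-Y, was in 25 of 40 members (62.5%), against 43.5% of tested genes and 34.6% of all windows. The cell cycle homology region, searched as TTTGAA or TTCGAA on both strands, was in 3 of 40 (7.5%), against 16.1% of tested genes and 16.4% of all windows. A gene counted as matched if any of its windows matched (a mean of 1.38 windows per member and 1.48 per tested gene). The shares of all windows count each window singly, so the like comparison is that with tested genes. A match is a string of letters and was not tested for binding.

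Each line below gives the 150 bases before the start, 5′ to 3′ on the gene's own strand. Capitals mark E2F letters in the first 4 and CCAAT letters in the last, MCM10, which had no E2F match. MCM6 is on the minus strand (chr2:135876444-135876593) and CDT1 on the plus strand (chr16:88803639-88803788). TYMS is on the plus strand (chr18:657503-657652), PCNA on the minus strand (chr20:5126623-5126772) and MCM10 on the plus strand (chr10:13161408-13161557).
MCM6: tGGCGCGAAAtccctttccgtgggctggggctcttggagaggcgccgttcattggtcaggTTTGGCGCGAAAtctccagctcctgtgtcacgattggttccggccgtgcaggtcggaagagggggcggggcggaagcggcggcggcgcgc
CDT1: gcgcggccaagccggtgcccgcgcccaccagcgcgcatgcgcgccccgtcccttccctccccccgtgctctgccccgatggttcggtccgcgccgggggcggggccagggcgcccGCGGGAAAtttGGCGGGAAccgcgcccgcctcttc
TYMS: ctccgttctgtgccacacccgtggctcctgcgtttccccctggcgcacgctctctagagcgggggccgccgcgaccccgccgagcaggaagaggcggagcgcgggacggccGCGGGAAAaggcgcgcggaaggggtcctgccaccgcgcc
PCNA: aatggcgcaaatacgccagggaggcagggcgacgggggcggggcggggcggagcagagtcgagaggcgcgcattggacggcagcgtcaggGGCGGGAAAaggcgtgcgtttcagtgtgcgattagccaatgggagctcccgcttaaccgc
MCM10: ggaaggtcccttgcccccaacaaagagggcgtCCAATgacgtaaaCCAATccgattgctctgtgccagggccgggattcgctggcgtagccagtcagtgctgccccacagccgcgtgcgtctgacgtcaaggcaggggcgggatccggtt

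Library totals ranged from 14481020 to 16038475 estimated counts. Vemurafenib replicate 1 stood apart from the other libraries of its group. Count differences across genes, as chi-square per degree of freedom, were 54.6 and 54.7 for its pairs with replicates 2 and 3. Between replicates 2 and 3 the value was 9.8. The deviations of its genes from the group mean ran lower with gene length (Spearman's rho across genes -0.59, against 0.51 and 0.43 in replicates 2 and 3). Genes are not independent replicates. Deviations from a group mean cancel within each gene, so a trend in 1 library forces opposite ones in the others, which are not separate support. Where leaving it out changed the vemurafenib call of a member, the value without it is given. For the other lists such values are given in part. SOX10, the melanocyte lineage factor, was read at 779 to 1190 TMM-normalised CPM, counts scaled to a common library size, in all 9 libraries, whereas the pigment genes MLANA and TYR were at or below 0.400 CPM in every one. Other lineage markers differed between groups: DCT had 165 to 367 CPM after vemurafenib and at most 1.04 elsewhere, CSPG4 176 to 269 after vemurafenib and 761 to 1650 elsewhere, and S100B 13.9 to 16.3 in controls, 231 to 329 after vemurafenib and 121 to 166 after cisplatin. Markers were summed as TPM, transcript levels scaled for gene length and library. The 11 melanoma lineage markers, of which 8 passed the read filter, summed to 1895 to 2137 TPM in controls, 2469 to 2675 after vemurafenib and 4049 to 4603 after cisplatin. Of 8 leukocyte markers 7 were in the table and 2 passed the read filter, and the sum was 100.7 to 138.1 in controls, 108.1 to 156.2 after vemurafenib and 277.2 to 360.1 after cisplatin. PTPRC, the common leukocyte antigen, had 0 in controls and at most 0.400 CPM elsewhere, while CD68, a lysosomal protein gene, had 207 to 236 CPM after cisplatin against 77.7 to 116 in controls. Of the 2 leukocyte markers that passed the filter, neither was called after vemurafenib and both were called higher after cisplatin (log2 changes 1.13 and 2.36). LYZ had the larger rise. The sums of 6 fibroblast markers were 8.77 to 11.9, 17.2 to 28.2 and 12.1 to 26.3 TPM in the same order, those of 5 endothelial markers 6.26 to 8.25, 2.79 to 10.8 and 19.4 to 21.8, and those of 6 epithelial markers 387.7 to 442.3, 135.5 to 205.7 and 319.3 to 354.5. EPCAM, 1 of the 6 epithelial markers, was at most 0.249 CPM. The 3 epithelial markers that passed the filter were all called lower after vemurafenib, from -3.23 for KRT14 to -0.80 for KRT8 on the log2 scale. After cisplatin 2 were called lower and 1 higher, from -3.19 for KRT14 to 0.90 for KRT8. The part of these markers in the results was not tested. MKI67, the proliferation antigen, was read at 469 to 578 CPM in controls, 235 to 314 after vemurafenib and 6.06 to 10.7 after cisplatin.

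After cisplatin all 47 members were lower than in controls, and in each of them every cisplatin library lay below every control library. The median log2 change was -2.29, against 0.00 over all genes tested, and a median of 20.4% of the control level was left. After vemurafenib 28 members fell, none rose and 19 did not pass, with a median log2 change of -0.50 against 0.01 over all genes and a median of 70.6% of the control level left. A gene was called where edgeR's quasi-likelihood F test gave a Benjamini-Hochberg adjusted p below 0.05 over all tested genes. In bulk RNA, fewer cycling cells and less RNA per cycling cell cannot be told apart.

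These counts stand on broad backgrounds. Of all tested genes, 23.5% were called lower and 22.7% higher after cisplatin, and 33.8% had every cisplatin library below every control. Members at least 4-fold lower numbered 28 of 47, where 3.41% of all genes were called that far down. After vemurafenib, 22.9% of all genes were called lower, 22.0% higher, and 27.0% had every treated library below every control, which held for 29 of the 47 members. Without vemurafenib replicate 1, 32 members fell and 1 rose. The added calls were CDC45, GINS3, POLD1 and RFC2 downwards and POLA1 upwards (log2 change 0.22, edgeR adjusted p = 0.0428), and no call was lost. The calls over all genes also grew without that library, from 3200 to 3956 lower and from 3082 to 3716 higher. Of all genes called after vemurafenib, 49.1% were higher with TMM scaling and 60.0% with total counts alone, which shifts the median of all genes to 0.11. No member changed direction among those called.

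**Figure D1:**
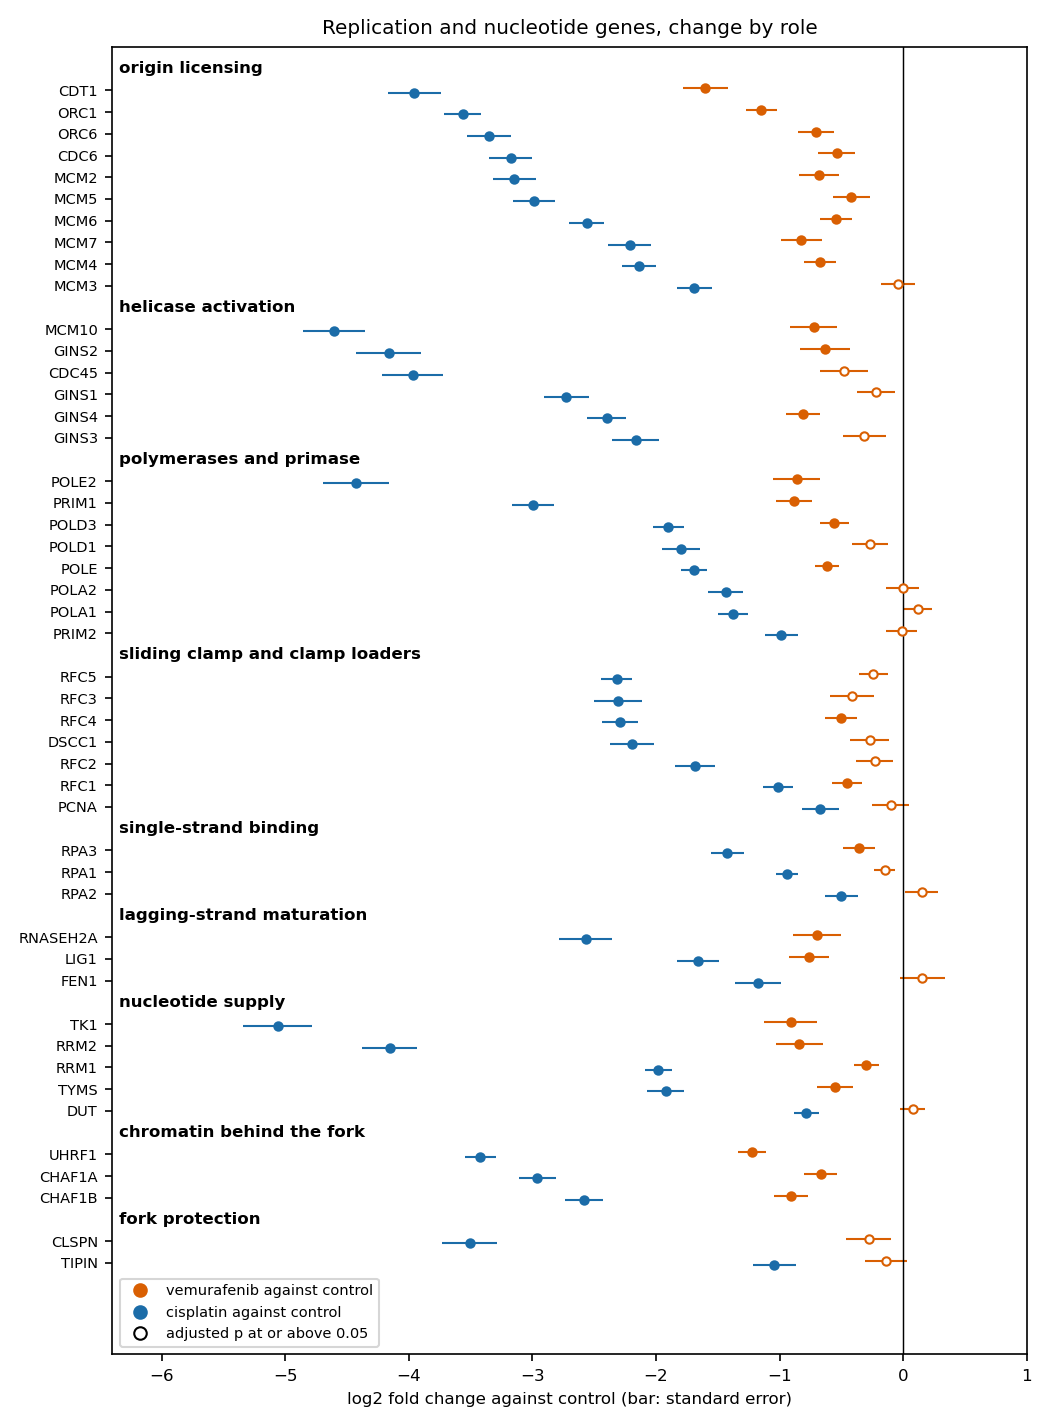
Log2 fold change of each of the 47 members against control, with the standard error as a bar, grouped by role; orange points are vemurafenib, blue points cisplatin, and open points did not pass the threshold. All 47 blue points lie below 0, from -5.06 for TK1 to -0.50 for RPA2, and 28 orange points are filled, from -1.60 for CDT1 upwards.

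Read per gene length, as the authors' TPM, the members summed to 2826 ± 286 TPM in controls (SD, n = 3), 2214 ± 134 after vemurafenib and 821 ± 15.0 after cisplatin. In estimated counts they took 0.312% to 0.367% of a control library, 0.241% to 0.287% of a vemurafenib library and 0.0891% to 0.0975% of a cisplatin library. PCNA and MCM7 led the order in every group, followed by TYMS. PCNA had 267 ± 52.5 and MCM7 257 ± 16.9 TPM in controls, which do not differ beyond their spread. After cisplatin PCNA stood at 178 ± 11.9 TPM and MCM7 at 57.4 ± 6.51. The share of PCNA in the members' summed TPM was 9.40% ± 1.16 in controls, 12.0% ± 0.384 after vemurafenib and 21.7% ± 1.76 after cisplatin. POLE2 was the lowest member in every group, at 8.98 ± 1.24, 5.36 ± 0.858 and 0.377 ± 0.0473 TPM.

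Origin licensing held the largest vemurafenib fall of the list, that of CDT1. Of its 10 members, 9 fell after vemurafenib (median log2 change -0.68) and 10 after cisplatin (median -3.07, range -3.96 to -1.69). CDT1, the loader of the MCM ring, was read at 68.8, 76.1 and 70.8 CPM in the control libraries, 31.3, 19.1 and 20.7 after vemurafenib and 5.40, 4.95 and 3.53 after cisplatin. The 3 groups do not overlap, and the vemurafenib libraries sit between the other two groups. Its log2 change was -1.60 (SE 0.18) after vemurafenib, with an edgeR adjusted p of 3.22e-05, and -3.96 (SE 0.21) after cisplatin, with 7.82e-08. CDT1 lies at chr16:88803789-88809258 (gene identifier 81620).

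ORC1, the largest subunit of the origin recognition complex, followed the same order. It went from 42.0, 40.1 and 43.5 CPM in controls to 22.1, 17.3 and 17.3 after vemurafenib and 3.32, 3.39 and 3.86 after cisplatin. That is 45.1% and 8.4% of the control mean. ORC6, the smallest subunit, kept 61.4% and 9.8%. CDC6, the ATPase that works with CDT1, had 72.4, 59.1 and 72.5 CPM in controls, 52.2, 38.5 and 50.1 after vemurafenib, and 8.31, 6.04 and 8.19 after cisplatin. Its vemurafenib fall (log2 change -0.54, SE 0.15, edgeR adjusted p = 0.0126) did not pass without control replicate 1.

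The 6 subunits of the MCM ring, which form a complex of equal parts, did not move equally. Their summed level was 591 ± 51.7 TPM in controls, 412 ± 36.6 after vemurafenib and 127 ± 11.6 after cisplatin. MCM7 was read at 348, 309 and 338 CPM in controls, 241, 146 and 175 after vemurafenib, and 80.0, 73.8 and 60.9 after cisplatin. MCM2 had 167, 132 and 151 CPM in controls, 107, 80.7 and 92.9 after vemurafenib, and 21.0, 16.2 and 13.5 after cisplatin. Both had 3 separate groups.

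MCM3 was the licensing gene that did not pass after vemurafenib. It had 141, 112 and 135 CPM in controls and 147, 108 and 122 after vemurafenib, which overlap (log2 change -0.04, SE 0.13, edgeR adjusted p = 0.831), and 44.1, 39.3 and 36.9 after cisplatin. Its share of the ring's summed TPM was 13.4% ± 0.510 in controls, 19.9% ± 0.727 after vemurafenib and 20.5% ± 0.804 after cisplatin, and neither treated group overlaps the controls. The share of MCM2 was 14.2% ± 0.563, 13.5% ± 0.541 and 7.82% ± 0.834. MCM4, MCM5 and MCM6 kept 62.7%, 74.8% and 68.5% of the control mean after vemurafenib and 22.7%, 12.6% and 16.9% after cisplatin. The vemurafenib call of MCM5 is a weak one (edgeR adjusted p = 0.0379): its groups overlap, and the call was lost in 11 of 22 alternative settings.

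Helicase activation had the lowest median of any role after cisplatin, -3.35 over 6 members, all called. MCM10, a scaffold of the starting helicase at chr10:13161558-13211110, went from 35.3, 27.9 and 36.8 CPM in controls to 19.4, 16.6 and 24.7 after vemurafenib and 1.87, 1.36 and 0.866 after cisplatin. The cisplatin libraries are the low group by far, with 4.1% of the control mean left (log2 change -4.61, SE 0.25, edgeR adjusted p = 8.51e-08). They held 27, 20 and 13 counts. Its vemurafenib fall did not pass on log2(TPM + 0.1) (limma adjusted p = 0.0768).

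CDC45, the partner that locks the ring, had 28.4, 21.5 and 30.2 CPM in controls, 23.9, 13.6 and 19.9 after vemurafenib and 1.66, 1.76 and 1.67 after cisplatin. The vemurafenib and control libraries overlap, and the change missed the threshold (log2 change -0.48, SE 0.19, edgeR adjusted p = 0.0630). With the replicate number as a block, CDC45 passed (adjusted p = 0.0172), as it did without vemurafenib replicate 1 (log2 change -0.67, edgeR adjusted p = 0.00713) or control replicate 2 (-0.61, 0.0389).

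The 4 GINS subunits, also equal partners in their complex, changed places. GINS2 had the highest TPM in controls (46.1 ± 4.65) and after vemurafenib (31.4 ± 6.97), and GINS3 after cisplatin (4.43 ± 0.336). The share of GINS2 in the complex's summed TPM went from 51.6% ± 1.13 in controls to 46.6% ± 4.84 after vemurafenib and 23.2% ± 2.52 after cisplatin, while that of GINS3 was 20.4% ± 2.57, 24.0% ± 2.75 and 38.5% ± 2.89. After cisplatin GINS2 changed by -4.17, GINS1 by -2.73, GINS4 by -2.40 and GINS3 by -2.17 on the log2 scale. After vemurafenib GINS2 and GINS4 fell (-0.63 and -0.81), and GINS1 (-0.22, edgeR adjusted p = 0.271) and GINS3 (-0.31, 0.161) did not pass. Without vemurafenib replicate 1 GINS3 passed (-0.43, edgeR adjusted p = 0.0470). GINS2 no longer passed when control replicate 1 or 3, or vemurafenib replicate 2, was left out.

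**Figure D2:**
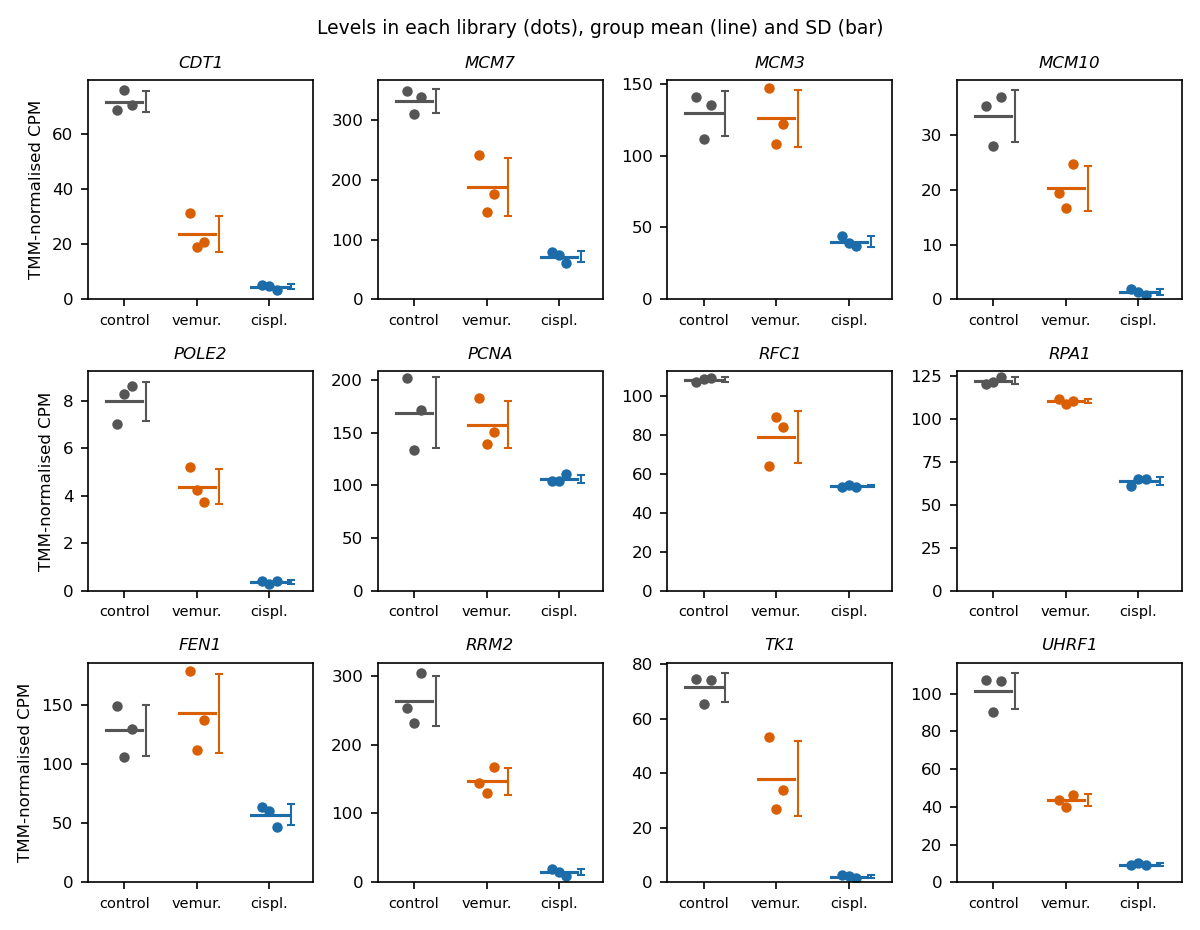
TMM-normalised CPM of 12 members in each library, with control, vemurafenib and cisplatin on the horizontal axis, dots for libraries, lines for group means and bars for the SD; each panel has its own scale that starts at 0. The cisplatin dots lie lowest in every panel, and the vemurafenib dots overlap the controls for MCM3, PCNA and FEN1.

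Polymerase and primase genes split by subunit. All 8 fell after cisplatin (median -1.74), and 4 fell after vemurafenib. POLE2, the second subunit of the leading-strand polymerase epsilon, went from 7.04, 8.29 and 8.60 CPM in controls to 5.20, 4.24 and 3.73 after vemurafenib and 0.415, 0.271 and 0.400 after cisplatin. Those last libraries held 6, 4 and 6 counts, so the size of its fall (log2 change -4.43, SE 0.27, edgeR adjusted p = 1.77e-07) rests on few reads. POLE, the catalytic subunit of the same enzyme, kept 65.2% after vemurafenib and 30.9% after cisplatin.

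PRIM1, the catalytic primase subunit, had 29.8, 30.1 and 34.3 CPM in controls, 15.4, 15.6 and 20.1 after vemurafenib, and 3.46, 3.60 and 4.73 after cisplatin. Its 3 groups are separate. PRIM2, its large partner subunit, had 16.6, 14.2 and 16.0 CPM in controls, 15.1, 15.0 and 16.3 after vemurafenib, and 7.61, 7.33 and 8.66 after cisplatin. Vemurafenib and control overlap for PRIM2 (log2 change -0.01, SE 0.13, edgeR adjusted p = 0.952), and its cisplatin change of -0.98 (SE 0.13) was the smallest of the role. POLA1 and POLA2, the polymerase alpha subunits bound to primase, were at 108.4% and 99.7% of the control mean after vemurafenib (edgeR adjusted p = 0.441 and 0.982) and 38.4% and 36.9% after cisplatin. PRIM1 made up 36.3% of the summed TPM of these 4 genes in controls, 23.4% after vemurafenib and 15.3% after cisplatin.

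Of the delta polymerase genes, which act mainly on the lagging strand, POLD3 kept 68.0% after vemurafenib and 26.8% after cisplatin, both called. The catalytic POLD1 kept 83.1% and 28.8%, and its vemurafenib change did not pass (log2 -0.27, edgeR adjusted p = 0.162). Without vemurafenib replicate 1 it did (log2 -0.48, edgeR adjusted p = 0.000527).

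The sliding clamp was among the least lowered members. PCNA, at chr20:5114953-5126622 (gene identifier 5111), had 202, 134 and 171 CPM in controls, 183, 140 and 151 after vemurafenib, and 104, 104 and 111 after cisplatin. Vemurafenib and control libraries overlap (log2 change -0.10, SE 0.15, edgeR adjusted p = 0.616), and the cisplatin libraries all lie lower (-0.67, SE 0.15, adjusted p = 0.00338), with 62.9% of the control mean left. PCNA also acts in DNA repair. GENCODE annotation has 3 pseudogenes named after PCNA, and how reads were split between them is not known. The same limit holds for all 8 members with such pseudogenes. Besides PCNA these are RPA2 and RRM2 with 3 each, DUT with 8, TYMS with 2, and RFC3, RFC5 and FEN1 with 1 each.

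The clamp loader RFC has 5 subunits. RFC1, the large subunit that serves this loader alone, had 107, 109 and 109 CPM in controls, 63.9, 89.3 and 84.1 after vemurafenib, and 53.4, 54.2 and 53.3 after cisplatin. It fell in both comparisons (log2 change -0.45, SE 0.12, edgeR adjusted p = 0.00944, and -1.01, SE 0.12, adjusted p = 4.75e-05). Vemurafenib replicate 1 was the lowest of its group: without it the vemurafenib change was -0.32 (edgeR adjusted p = 0.00143), and with all libraries it did not pass on log2(TPM + 1) or log2(TPM + 0.1) (limma adjusted p = 0.119 and 0.120). RFC5 had the largest cisplatin change of the role, -2.32 (SE 0.13), with 47.1, 47.6 and 47.5 CPM in controls, 41.0, 42.8 and 36.6 after vemurafenib, and 10.9, 9.36 and 8.26 after cisplatin. RFC2, RFC3 and RFC4 kept 85.3%, 75.0% and 70.6% after vemurafenib and 31.1%, 20.2% and 20.4% after cisplatin. Of RFC2 to RFC5, RFC4 passed after vemurafenib, and the others had edgeR adjusted p = 0.241 for RFC2, 0.0821 for RFC3 and 0.113 for RFC5. Without vemurafenib replicate 1 RFC2 passed (log2 change -0.43, edgeR adjusted p = 0.00333). RFC3 passed without cisplatin replicate 1 or 3 (0.0467 and 0.0456), libraries that enter that comparison through the shared estimate of spread. RFC1 took 16.8% ± 1.12 of the summed TPM of the 5 in controls and 30.4% ± 2.93 after cisplatin. DSCC1, part of an alternative loader that works in sister chromatid cohesion, kept 82.8% after vemurafenib (adjusted p = 0.195, and 0.0274 without vemurafenib replicate 3) and 21.8% after cisplatin.

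Replication protein A, the trimer that coats single-stranded DNA in replication and in repair, fell least of the roles after cisplatin (median -0.94 over 3 members). RPA1, the large subunit, had 121, 122 and 125 CPM in controls, 111, 109 and 111 after vemurafenib, and 61.1, 65.5 and 65.0 after cisplatin. Its vemurafenib libraries all lie below the controls, yet the change did not pass (log2 -0.15, SE 0.09, edgeR adjusted p = 0.185). RPA2 had 62.2, 49.4 and 61.2 CPM in controls, 73.9, 58.4 and 59.4 after vemurafenib, and 43.8, 41.7 and 36.6 after cisplatin. Its cisplatin change of -0.50 (SE 0.13, edgeR adjusted p = 0.00952) was the smallest of the 47. RPA3, the small subunit, had the largest cisplatin change of the 3 (-1.42), and its vemurafenib fall (-0.36, SE 0.13, edgeR adjusted p = 0.0421) was lost in 14 of 22 alternative settings, with overlapping groups. The summed TPM of the trimer was 161 ± 13.2 in controls, 165 ± 5.90 after vemurafenib and 96.1 ± 2.43 after cisplatin.

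In lagging-strand maturation, RNASEH2A, the catalytic subunit of ribonuclease H2, had 69.6, 63.4 and 73.2 CPM in controls, 57.5, 33.5 and 36.2 after vemurafenib, and 13.6, 9.16 and 12.0 after cisplatin. LIG1, the ligase that seals Okazaki fragments, kept 59.0% after vemurafenib and 31.6% after cisplatin, both called. FEN1, the flap nuclease of the same pathway, differed: it had 149, 106 and 129 CPM in controls, 179, 112 and 138 after vemurafenib, and 63.6, 60.5 and 46.9 after cisplatin. The vemurafenib and control libraries overlap (log2 change 0.15, SE 0.18, edgeR adjusted p = 0.521), with vemurafenib replicate 1 the highest of all 9. Without that library the log2 change of FEN1 was -0.04.

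Nucleotide supply held the member with the largest cisplatin fall. TK1, the thymidine kinase of S phase, at chr17:78174079-78187204 (gene identifier 7083), had 74.7, 65.4 and 74.1 CPM in controls, 53.3, 27.0 and 33.7 after vemurafenib, and 2.63, 2.24 and 1.53 after cisplatin. The 3 groups are separate, and vemurafenib replicate 1 is the highest of its group. The log2 change was -0.91 (SE 0.21, edgeR adjusted p = 0.00453) after vemurafenib and -5.06 (SE 0.28, adjusted p = 8.77e-08) after cisplatin, where 3.0% of the control mean was left. TYMS, thymidylate synthase, had 145, 124 and 168 CPM in controls, 119, 83.1 and 96.6 after vemurafenib, and 38.7, 37.6 and 39.1 after cisplatin. On the opposite strand ENOSF1 covers 39.1% of the exonic bases of TYMS. No source used here says that strand was counted, so reads of the pair cannot be told apart. ENOSF1 itself was at 34.7 ± 3.13, 27.8 ± 1.58 and 19.9 ± 0.839 CPM in the same order of groups.

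DUT, the enzyme that keeps uracil out of DNA, was the nucleotide gene that did not pass after vemurafenib. It had 76.4, 66.5 and 74.5 CPM in controls and 83.6, 72.0 and 73.9 after vemurafenib, which overlap (log2 change 0.08, SE 0.10, edgeR adjusted p = 0.566), and 43.9, 41.1 and 41.4 after cisplatin. GENCODE annotation has 8 pseudogenes named after DUT.

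Ribonucleotide reductase makes deoxynucleotides from a large subunit, RRM1, and a small subunit that is either RRM2, made in S phase, or RRM2B, the form known to be induced by DNA damage, which is outside the list of 47. RRM1 had 118, 104 and 129 CPM in controls, 92.7, 94.9 and 98.9 after vemurafenib, and 30.2, 28.3 and 30.6 after cisplatin. Its vemurafenib call (log2 -0.30, SE 0.10, edgeR adjusted p = 0.0332) was lost in 11 of 22 alternative settings. RRM2 had 254, 232 and 304 CPM in controls, 144, 129 and 168 after vemurafenib, and 19.1, 15.4 and 9.79 after cisplatin, 3 separate groups (log2 change -0.84, SE 0.19, adjusted p = 0.00408, and -4.16, SE 0.22, adjusted p = 7.58e-08).

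RRM2B moved the other way. It had 83.1, 69.2 and 73.2 CPM in controls, 78.8, 121 and 127 after vemurafenib, and 170, 169 and 192 after cisplatin. The cisplatin libraries are all higher than the rest (log2 change 1.23, SE 0.16, edgeR adjusted p = 9.77e-05). After vemurafenib, replicate 1 lies within the control range, and the rise (0.53, SE 0.16, adjusted p = 0.0188) did not pass when control replicate 2, control replicate 3, vemurafenib replicate 2 or vemurafenib replicate 3 was left out (adjusted p = 0.0787, 0.0684, 0.0683 and 0.0763). Without vemurafenib replicate 1 it was 0.72 (adjusted p = 4.73e-05).

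In TPM, RRM2 made up 82.3%, 83.7% and 86.4% of RRM2 plus RRM2B in the control libraries, 73.5%, 61.9% and 66.9% after vemurafenib, and 14.7%, 12.3% and 7.23% after cisplatin. The groups do not overlap. The share was lower than in controls by 16.7 percentage points after vemurafenib (a difference of -16.7) and by 72.7 points after cisplatin (-72.7). An exact two-sided permutation test gave p = 0.1 for each, the smallest that 3 libraries against 3 can give, so this design cannot pass 0.05 for a single share.

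**Figure D3:**
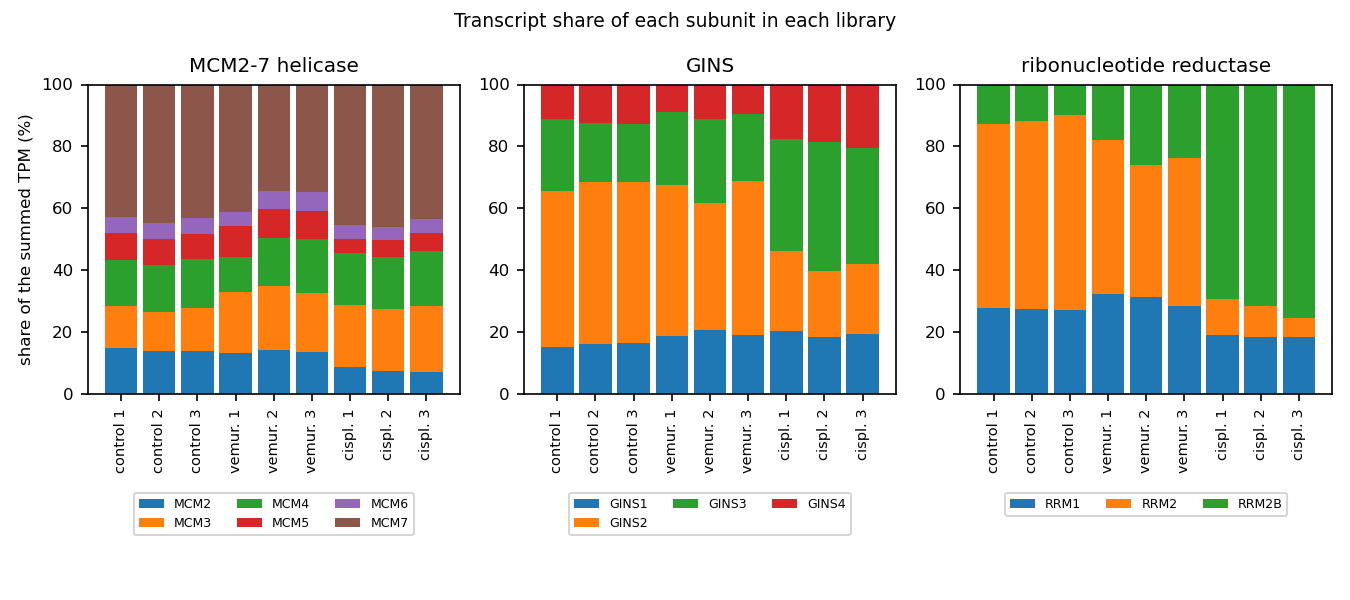
Share of each subunit in the summed TPM of its complex, in percent, for each of the 9 libraries, for the MCM ring, GINS and ribonucleotide reductase. RRM2 takes 61.0% of the reductase transcripts on average in controls and 9.27% after cisplatin, and RRM2B 11.5% and 72.1%.

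Chromatin genes behind the fork fell in every case, 3 of 3 in both comparisons. UHRF1, which guides DNA methylation onto newly made DNA, had 107, 90.5 and 107 CPM in controls, 43.7, 40.2 and 46.6 after vemurafenib, and 9.07, 10.3 and 8.99 after cisplatin. The 3 groups are narrow and separate (log2 change -1.22, SE 0.11, edgeR adjusted p = 5.15e-06, and -3.42, SE 0.12, adjusted p = 3.43e-09). CHAF1A and CHAF1B, subunits of the chromatin assembly factor that deposits histones at the fork, kept 63.0% and 53.3% of the control mean after vemurafenib and 12.8% and 16.6% after cisplatin.

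Of the fork protection genes, neither passed after vemurafenib, and both fell after cisplatin. CLSPN, the adaptor that links a stalled fork to the checkpoint kinase CHEK1, had 34.4, 29.7 and 37.6 CPM in controls, 31.2, 23.1 and 29.6 after vemurafenib (log2 change -0.28, SE 0.18, edgeR adjusted p = 0.234), and 4.08, 2.78 and 2.06 after cisplatin (-3.51, SE 0.22). TIPIN, which joins CLSPN in the fork protection complex, had 17.4, 13.9 and 16.0 CPM in controls, 14.1, 12.2 and 16.5 after vemurafenib (-0.14, SE 0.17, adjusted p = 0.530), and 8.93, 7.80 and 6.19 after cisplatin (-1.04, SE 0.17).

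Across roles, 11 members kept less than 10% of the control mean after cisplatin: ORC1, ORC6, CDT1, MCM10, CDC45, GINS2, POLE2, RRM2, TK1, UHRF1 and CLSPN. At the other end 5 kept 50% or more: PRIM2, PCNA, RPA1, RPA2 and DUT. After vemurafenib 3 members were below 50%, ORC1, CDT1 and UHRF1, and 10 were at or above 90%, MCM3, POLA1, POLA2, PRIM2, PCNA, RPA1, RPA2, FEN1, DUT and TIPIN. The median cisplatin log2 change was -2.21 for the 29 members with an E2F match and -2.58 for the 11 without (TK1, RRM2, MCM10, CDC45, ORC6, CHAF1B, RNASEH2A, RFC5, POLD1, PRIM2 and FEN1), and -2.73 with a CCAAT box against -1.92 without. Only exact strings were searched, so a member without a match may hold a site spelled otherwise. Members with no promoter window are in neither class. These are descriptions, with no test.

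Set directly against each other, all 47 members were higher in vemurafenib than in cisplatin libraries, with no overlap between the groups. Of all tested genes, 23.0% were called higher and 20.8% lower in that comparison, and 27.9% had every vemurafenib library above every cisplatin library. The median log2 difference was 1.79, against 0.03 over all genes, and it ran from 0.56 for RFC1 to 4.15 for TK1. Agent, dose and exposure differ together here, time off the drug may differ too, and these cannot be told apart.

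Other replication factors outside the list fell more often than they rose. Of 42 tested, 6 rose and 20 fell after vemurafenib (median log2 change -0.33), and 2 rose and 29 fell after cisplatin (median -1.14), beside 22.0% higher and 22.9% lower of all genes after vemurafenib and 22.7% and 23.5% after cisplatin. Without control replicate 2 the 6 that rose after vemurafenib became 2, and on log2(TPM + 1) the 20 that fell became 11. The 2 that rose after cisplatin became 1 whenever a control or cisplatin library was left out. TOP2A, the topoisomerase that untangles sister DNA, had the largest cisplatin fall (-6.23, SE 0.23), and DTL, which targets CDT1 for destruction, the largest vemurafenib fall (-1.20, SE 0.14). GMNN, the inhibitor of CDT1, fell in both (-0.49 and -2.68), but its vemurafenib call was lost in 6 of 22 settings, among them without control replicate 1 or 3 or vemurafenib replicate 2. The largest cisplatin rise was that of POLD4, the small subunit of polymerase delta, at 111, 124 and 114 CPM against 64.1, 66.4 and 52.4 in controls (log2 0.93, SE 0.17, edgeR adjusted p = 0.00104). RNASEH2C, a scaffold of ribonuclease H2, had the largest vemurafenib rise (0.55, SE 0.15), while its catalytic partner RNASEH2A fell. The rise of RNASEH2C did not pass without control replicate 2 (edgeR adjusted p = 0.0543) and was 0.32 without vemurafenib replicate 1 (0.00360). Between the drugs, TOP2A was the factor furthest above its cisplatin level in vemurafenib libraries (log2 difference 5.08, SE 0.22) and POLD4 the one furthest below (-1.13, SE 0.17), both called.

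Of 36 other genes of nucleotide metabolism tested, 10 rose and 5 fell after vemurafenib (median log2 change 0.09), beside 22.0% and 22.9% of all genes. After cisplatin 4 rose and 18 fell (median -0.34), beside 22.7% and 23.5% of all genes. Without control replicate 2 the 10 that rose after vemurafenib became 6 and the 4 that rose after cisplatin 2, as they did without cisplatin replicate 2 or 3. Without control replicate 3 the 18 that fell became 11. SAMHD1, which breaks down deoxynucleotides, had the largest vemurafenib rise: 21.5, 22.4 and 27.8 CPM in controls, 56.7, 76.6 and 63.0 after vemurafenib (log2 1.45, SE 0.14, edgeR adjusted p = 9.40e-06). DCK, a salvage kinase, had the largest vemurafenib fall (-0.76), and DTYMK, which acts after TYMS and TK1 in thymidine nucleotide synthesis, the largest cisplatin fall (-2.24). Between the drugs, DTYMK was higher in vemurafenib than in cisplatin libraries by 2.25 (SE 0.24) and RRM2B lower (-0.70, SE 0.16), the called extremes of these genes.

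**Figure D4:**
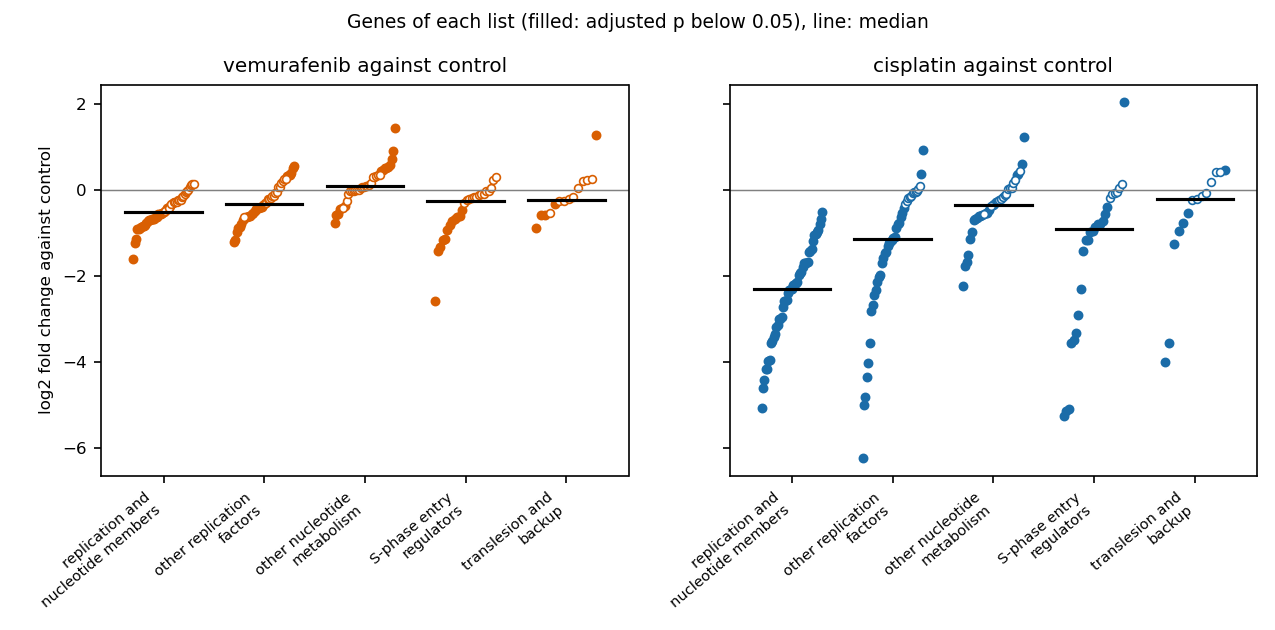
Log2 fold change against control of each gene in the 47 members and 4 other lists, vemurafenib left and cisplatin right, with filled points past the threshold and a line at the median. The medians of the members are the lowest of the 5 lists in both panels, -0.50 and -2.29, and that of other nucleotide metabolism is 0.09 and -0.34.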

How the data were processed

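RNA from 9 libraries of A375 cells, 3 per group, was analysed. Per the submitters' processing notes, HISAT2 2.0.4 aligned the reads to hg38. How reads were counted, and on which annotation, is not given in the sources used here. Estimated counts per gene, as deposited by the authors, were rounded to whole numbers. Per the file headers, the same table holds the authors' TPM and FPKM. TPM served for levels between genes, and TPM and FPKM for alternatives. Of the per-sample columns 0 were left unused.

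Genes were kept with edgeR's filterByExpr, scaled by TMM and fitted in 1 model of all 9 samples (edgeR 4.0.16, R 4.3.3), with quasi-likelihood tests, two-sided, and Benjamini-Hochberg adjustment over all 13989 genes at 0.05. The standard error is the size of the log2 change divided by the square root of F. PCR reads carry no molecular identifiers, so counts limit counting error only. The fit was tested on simulated counts of 13989 genes. For vemurafenib against control, recovery was 32.8% at 1.5-fold (67 altered genes), 68.7% at 2-fold (67) and 97% at 4-fold (66). For cisplatin against control it was 23.9%, 83.6% and 95.5%. The simulation altered far fewer genes than were called in the data and held no length trend. Its rates therefore do not give the power of the tests reported here. No 2 libraries of a group agreed within sampling noise.

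The members and lists were chosen with earlier results of these data known. Named genes were, per role, the members with the largest and smallest cisplatin change, a panel, every member not called in a comparison, and from each other list the called genes with the largest rise and fall. Some items that the rule names are not reported here. Same-numbered libraries of vemurafenib and control deviated together (correlations across genes 0.176, 0.137 and 0.185), so numbers may pair them. Those of cisplatin and control (0.21, 0.0813 and 0.125) were also positive. Each cisplatin library correlated most with the control of its own number, so numbers may pair these too. The main model had no replicate block. Gene coordinates and promoters are from RefSeq, GRCh38, and exon overlaps from GENCODE. Alternatives were other scalings, filters, tests and units, a length offset, the replicate block and each library left out.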

Additional observations from a re-analysis of the deposited data

How the results depend on the processing

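In both comparisons with cisplatin libraries all 47 members passed in the same direction in all 22 alternatives run. After vemurafenib 23 to 33 members passed, and no member that passed reversed. The number called higher was 0 except without vemurafenib replicate 1, where it was 1, so leaving out single libraries gave 0 to 1. The median cisplatin log2 change of the members was -2.10 on log2(TPM + 1) and -1.97 on log2(FPKM + 1), scales on which the pseudocount by construction pulls low genes towards 0, and -2.20 on log2(TPM + 0.1). Among all genes called after vemurafenib, 59.3% were higher on log2(TPM + 1). With the replicate block 29 members passed after vemurafenib (CDC45 added) and with block and length offset 31 (RFC2 and RFC3 added), and 47 passed in the other comparisons. The numbers of vemurafenib and cisplatin libraries did not pair throughout (0.166, 0.013 and 0.102). Vemurafenib replicate 2 correlated more with cisplatin replicate 3 (0.142). The vemurafenib calls that changed most often were RPA3 (14 of 22 settings), MCM5 (11) and RRM1 (11). The RRM2 share differed between vemurafenib and cisplatin by 56.05 points in TPM and 49.96 in CPM. Depth limits POLE2 after cisplatin, with 4 to 6 counts per library.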

Other observations

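Of 26 regulators of S-phase entry tested, none rose and 12 fell after vemurafenib (median log2 change -0.26), and 1 rose and 19 fell after cisplatin (median -0.90), where 22.9% and 23.5% of all genes fell. Over all genes 22.0% and 22.7% rose. Without vemurafenib replicate 1, 1 of the 26 rose after vemurafenib. With all libraries kept, 1 also rose with total counts alone, on log2(FPKM + 1), and with the length offset with or without the replicate block. On log2(TPM + 1) or log2(TPM + 0.1), 2 rose. E2F1, an activator of replication genes, had 64.2, 49.3 and 48.3 CPM in controls, 36.4, 20.5 and 28.3 after vemurafenib and 5.75, 4.14 and 4.46 after cisplatin, 3 separate groups (log2 change -0.92 and -3.49). E2F2 had the largest cisplatin fall of the list (-5.26, SE 0.28), with 0.200 to 0.415 CPM left. That level is as low as that of POLE2, so the size of this fall also rests on few reads. CCND1, the cyclin of early G1, had the largest vemurafenib fall: 826, 788 and 813 CPM in controls, 107, 114 and 182 after vemurafenib (log2 -2.59, SE 0.19, edgeR adjusted p = 1.26e-06). The rise after cisplatin was that of CDKN1A, a cyclin-dependent kinase inhibitor (2.05, SE 0.13). MYBL2, a partner of the MuvB complex, did not pass after vemurafenib (-0.15, edgeR adjusted p = 0.611) except without vemurafenib replicate 1 (-0.45, 0.0191). It was higher in vemurafenib than in cisplatin libraries by 4.94, while CDKN1A was lower (-2.21).

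Translesion and backup synthesis genes copy damaged DNA or restart forks. Of 14 tested, 1 rose and 4 fell after vemurafenib, and 1 rose and 6 fell after cisplatin (medians -0.23 and -0.21). Of all genes, 22.0% rose and 22.9% fell after vemurafenib, and 22.7% rose and 23.5% fell after cisplatin. The vemurafenib counts of the list moved with single libraries: without vemurafenib replicate 1, 4 rose and 5 fell, and without control replicate 2 or 3, 3 were called in all. They also moved with every library kept. In all, 3 were called with total counts alone or on log2(FPKM + 1), and 2 on log2(TPM + 1) or log2(TPM + 0.1). The 1 that rose after cisplatin became 3 without vemurafenib replicate 1 and 0 without cisplatin replicate 3. POLH, the polymerase that bypasses platinum crosslinks, had 33.3, 35.5 and 37.1 CPM in controls and 41.8, 50.1 and 55.9 after cisplatin, all higher (log2 0.48, SE 0.13, edgeR adjusted p = 0.0104, and 0.0551 without cisplatin replicate 3). POLK, another bypass polymerase, rose after vemurafenib from 35.3, 41.7 and 36.4 to 52.3, 127 and 98.0 CPM (log2 1.29, SE 0.25, edgeR adjusted p = 0.00150). POLQ, of end joining, had the largest cisplatin fall (-3.99). Vemurafenib libraries were above cisplatin libraries by 3.47 for POLQ and below for POLH (-0.70).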
